A study of Mus musculus with 42 samples.

Results

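Amino acid carriers of the proximal tubule were described as 10 genes: Slc6a19, Slc6a18, Slc7a9, Slc3a1, Slc1a1, Slc7a13, Slc7a7, Slc7a8, Slc7a2 and Slc7a12. They were taken by symbol from tables of raw counts and RPKM that list 40701 genes, and all 10 were present and passed the filter on low counts in every fit. The libraries came from renal cortex of 12-week-old mice, from kidneys 5 or 10 days after unilateral ureteral obstruction (UUO) and from contralateral kidneys, labelled healthy controls, whose day is not given. UUO is a surgical model in which the ureter of 1 kidney is blocked, and the kidney becomes fibrotic. In each kidney state, 3 female and 4 male libraries held proximal tubule RNA (PT) and as many held total kidney RNA (Total), 42 libraries in all. PT RNA is RNA that bound to beads coated with anti-GFP antibodies, the method called translating ribosome affinity purification (TRAP), in which a GFP-tagged ribosomal protein marks the ribosomes of 1 cell type. The promoter or Cre line that drove the tag, the strain and the number of animals are not given in the sources used here. The labels do not say whether Total is the unbound part or RNA taken before the beads were added. Nor do they say that libraries came from separate mice, so p-values measure the spread between libraries, which may in part be technical.

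The proximal tubule takes back nearly all amino acids that the glomerulus filters. Carriers in the apical brush border bring them in from the tubule fluid, and carriers in the basolateral membrane pass them on to the blood. Several carriers are pairs of a light chain, which transports, and a heavy chain, which brings it to the membrane: Slc7a9 pairs with Slc3a1 (rBAT) on the apical side, and Slc7a7 and Slc7a8 pair with Slc3a2 (4F2hc) on the basolateral side. In humans, loss of SLC7A9 or SLC3A1 causes cystinuria, loss of SLC6A19 Hartnup disorder, and loss of SLC7A7 lysinuric protein intolerance.

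Levels are given as CPM, read counts scaled to each library's total with TMM factors, and levels of different genes are compared only per length, as the authors' RPKM. A difference between groups is a log2 fold change ± standard error, from edgeR's quasi-likelihood test with the sexes at equal weight, with n = 7 libraries per side unless another n is given. A gene was called, and is said to have risen, fallen or differed, at a Benjamini-Hochberg adjusted p under 0.05 over all genes of the fit and a change of at least 2-fold. Total counts per library ran from 9307188 to 43640760. The summed level of 8 proximal tubule markers had a median of 7534 CPM in contralateral PT libraries, against 4785 CPM in contralateral Total libraries. That of 7 markers of the loop of Henle and distal tubule was 155 CPM in PT and 3666 CPM in Total, so the PT label held against its markers. PT libraries differed widely in Lars2, the mitochondrial leucyl-tRNA synthetase, from 2621 to 43629 CPM, and were split by its level into libraries of low and high Lars2, a split chosen after the values were seen. In obstructed kidneys all 8 proximal tubule markers fell in PT, where their summed level had a median of 1141 CPM at day 5 and 1176 CPM at day 10.

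The genes lie on 8 chromosomes: 2 neighbouring pairs share one, and the promoter sequences of 3 genes are shown because those genes form the contrasts below. Slc6a19 and Slc6a18 lie on chromosome 13 with 0 protein-coding genes between them, and Slc7a7 and Slc7a8 on chromosome 14 with 16 between them (GENCODE M21). Of the 10 genes, 6 matched the RefSeq promoter table for build GRCm38.p6, with 11 windows in all, each running from 250 bases before to 50 bases after a transcription start. Slc6a19 fell most in PT, Slc7a9 fell, and Slc3a1, its heavy chain, was not called in PT. Both strands of each window were searched for 3 motifs of the kidney factors HNF1 and HNF4: the HNF1 half-site GTTAAT, the HNF1 palindrome GTTAATNATTAAC, which contains that half-site, and the HNF4 motif CAAAGTCCA. These occur in 7.1%, 0.00913% and 0.475% of all 32851 windows of the table. The window of Slc3a1 (chr17:85028097-85028396, plus strand) held the HNF4 motif at base 212 of its 300 and, on the other strand, the HNF1 half-site at base 252, both in capitals here. The windows of Slc6a19 (chr13:73692587-73692886, minus strand) and Slc7a9 (chr7:35448842-35449141, plus strand, the first of 2) held no such letters. Of the other windows, the fifth of Slc7a7 held the half-site. A match is a description of letters and not of binding.

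Slc6a19: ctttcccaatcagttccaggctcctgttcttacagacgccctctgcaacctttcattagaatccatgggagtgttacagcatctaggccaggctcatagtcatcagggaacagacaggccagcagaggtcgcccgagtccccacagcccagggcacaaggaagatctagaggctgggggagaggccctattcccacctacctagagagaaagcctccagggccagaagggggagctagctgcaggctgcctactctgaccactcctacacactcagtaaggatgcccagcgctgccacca
Slc7a9: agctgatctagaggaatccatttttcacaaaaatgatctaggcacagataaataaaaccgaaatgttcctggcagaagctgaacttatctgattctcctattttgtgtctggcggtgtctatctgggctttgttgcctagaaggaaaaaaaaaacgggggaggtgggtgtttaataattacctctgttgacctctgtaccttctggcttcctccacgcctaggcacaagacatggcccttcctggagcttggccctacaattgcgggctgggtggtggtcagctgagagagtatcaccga
Slc3a1: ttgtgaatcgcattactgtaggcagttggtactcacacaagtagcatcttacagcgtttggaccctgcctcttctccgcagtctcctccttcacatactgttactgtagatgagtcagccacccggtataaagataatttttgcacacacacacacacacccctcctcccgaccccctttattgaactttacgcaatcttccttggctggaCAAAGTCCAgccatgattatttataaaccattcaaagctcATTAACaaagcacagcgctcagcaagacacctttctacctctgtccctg

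In PT of obstructed kidneys most carriers were lower. At day 5, 6 of the 10 carriers fell and 0 rose, where 12.4% of the 14932 genes tested fell and 30.6% were called in either direction. Their median log2 fold change was -1.52, against 0.05 for all genes tested. At day 10, 6 fell, where 12% of genes fell, and Slc7a12 rose, where 19.7% of genes rose. The same 6 fell on both days: Slc6a19, Slc7a9, Slc1a1, Slc7a13, Slc7a7 and Slc7a8. Settings that ended the call were limma on log2(RPKM + 1) for Slc1a1 on both days and Slc7a13 at day 10 (-0.90), and library size only for Slc1a1 at day 5. At day 5 the Slc7a12 change was 0.81 and was not called. Library size only (1.26), limma-voom (1.01) and limma on log2(RPKM + 1) (1.14) called it higher. Between day 10 and day 5, 0 of 10 were called in PT, where 0.442% of genes were, and 0 of 10 in Total, where 0.393% were, by edgeR. DESeq2 and limma-voom also called 0 in each. At an unadjusted p under 0.05 there were 0 in PT and 3 in Total, with no share of all genes to set beside these counts. In these bulk libraries, fewer cells of a type and less RNA per cell cannot be told apart.

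**Figure D1:**
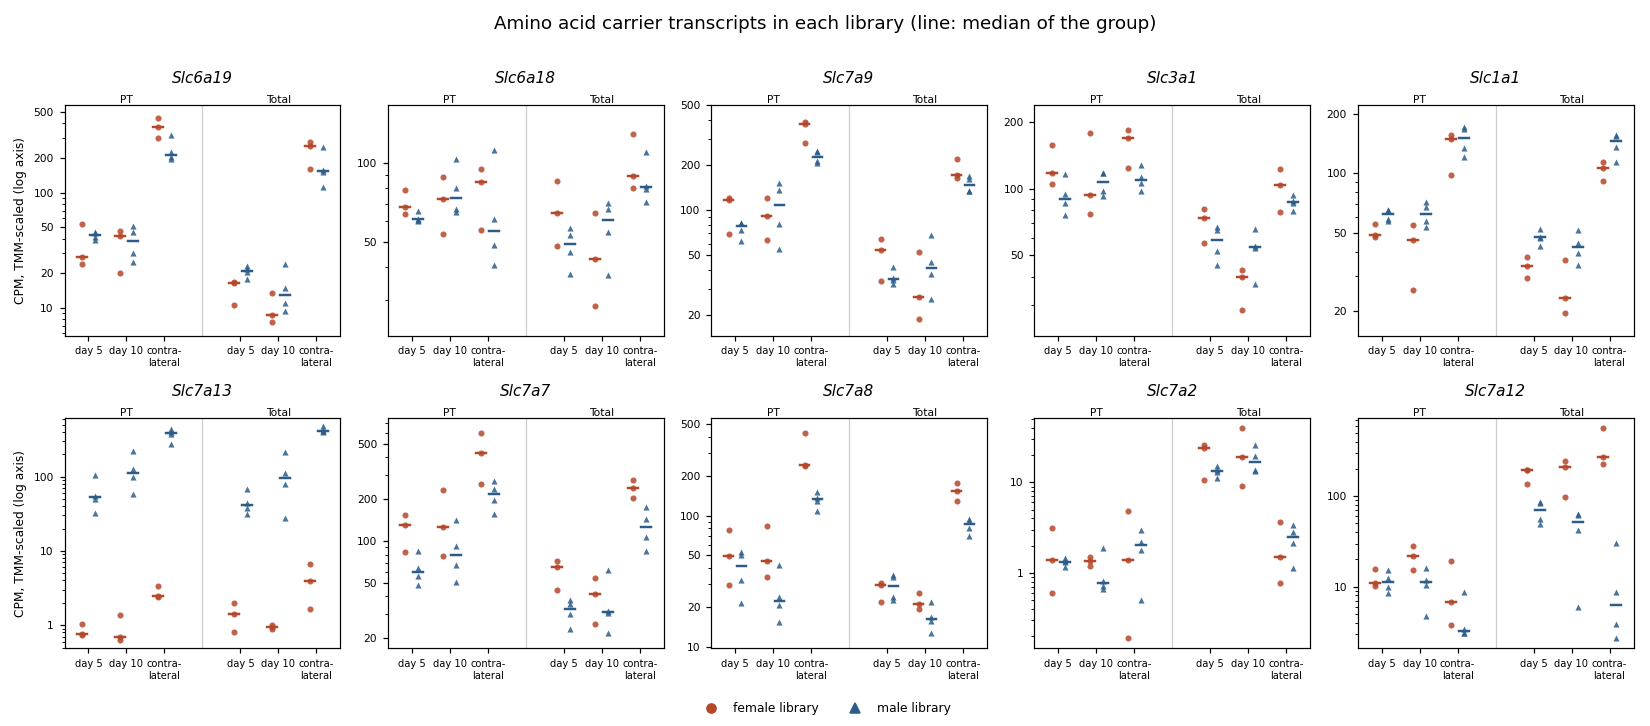
Levels of the 10 carrier transcripts in each of the 42 libraries, in CPM on log axes, with PT left and Total right in each panel and day 5, day 10 and contralateral kidneys along the x axis. Circles are female and triangles male libraries, and lines are group medians. Slc6a19 drops in every obstructed library, Slc6a18 and Slc3a1 overlap between states in PT, Slc7a13 is near 1 CPM in obstructed females, and Slc7a2 is higher in obstructed than in contralateral Total libraries.

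Apical carriers of neutral amino acids came first. Slc6a19 encodes B0AT1, the main sodium-dependent carrier of neutral amino acids in the brush border. Its PT level ran from 24.0 to 53.8 CPM with a median of 41.7 at day 5 and from 20.01 to 51.3 CPM with a median of 41.99 at day 10, against 196 to 447 CPM with a median of 296 in contralateral kidneys. Every obstructed library lay below every contralateral library on both days. The fall was -2.94 ± 0.23 at day 5 (adjusted p = 1.65e-09, edgeR) and -3.03 ± 0.23 at day 10 (adjusted p = 9.42e-10, edgeR). In Total, Slc6a19 fell by 3.52 on the log2 scale at day 5 and by 4.02 at day 10. The day 10 loss was smaller in PT than in Total by 1.02 ± 0.32 (interaction, adjusted p = 0.035, edgeR), 1 carrier of 10 higher in this interaction, where 4.68% of genes were. That call was lost under 7 of the other settings, among them DESeq2 (0.88, adjusted p = 0.072), and without any 1 of 14 libraries.

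Slc6a18 encodes B0AT3, a carrier of glycine and other neutral amino acids, and is the neighbour of Slc6a19. Its PT level had a median of 63.8 CPM at day 5 (range 60.0 to 79.0) and 72.7 CPM at day 10 (range 53.4 to 104), against 61.3 CPM in contralateral kidneys (range 40.8 to 112). The states overlapped. The log2 fold changes were -0.13 ± 0.20 at day 5 and 0.04 ± 0.20 at day 10, and neither was called. In Total, its log2 fold changes of -0.74 ± 0.19 and -0.86 ± 0.19 had adjusted p of 0.00195 and 4.65e-04 (edgeR) but did not reach 2-fold.

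The difference between the neighbours was also taken inside each library, where scaling cancels. The ratio of Slc6a19 to Slc6a18 RPKM in PT was 0.331 to 0.658 at day 5 and 0.330 to 0.562 at day 10, against 2.49 to 7.12 in contralateral kidneys. It dropped by 2.91 on the log2 scale at day 5 and by 3.16 at day 10, as the mean of the 2 sexes, with no overlap between states. This ratio and those below were chosen after the values were seen, so they are given as descriptions with no test.

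**Figure D2:**
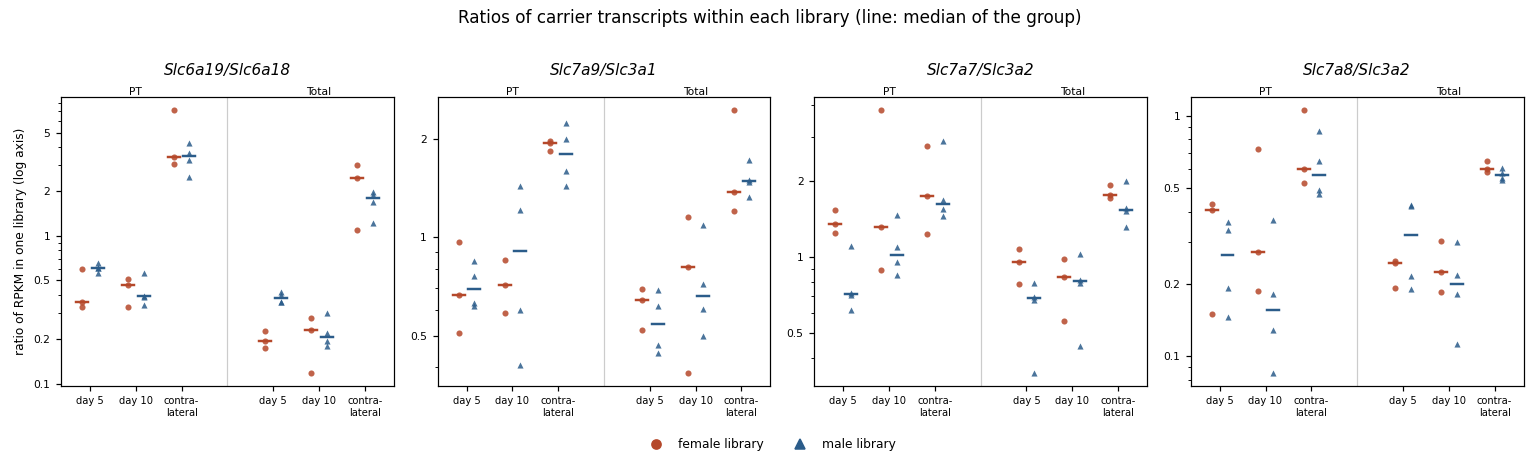
Ratio of the RPKM of 2 genes within each library, on log axes, for PT (left) and Total (right) at day 5, day 10 and in contralateral kidneys; circles are female and triangles male libraries, and lines are group medians. Slc6a19/Slc6a18 lies at or below 0.658 in obstructed PT libraries and at or above 2.49 in contralateral ones, and Slc7a9/Slc3a1 at or below 1.434 and at or above 1.437.

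Partners of B0AT1 were measured beside it. Tmem27, the tables' symbol for collectrin, which brings B0AT1 to the brush border in the kidney, fell in PT by 1.14 on the log2 scale at day 5 and by 1.25 at day 10. Its mean PT level in females was 1608 ± 235 CPM at day 5 and 1388 ± 551 CPM at day 10, against 3695 ± 1174 CPM in contralateral kidneys (SD, n = 3 each). The ratio of Slc6a19 to Tmem27 RPKM in PT dropped by 1.84 and 1.77 on the log2 scale at the 2 days, and no obstructed library reached the contralateral range. Anpep, aminopeptidase N, which frees amino acids from peptides in the brush border, fell by 1.42 ± 0.48 and 1.51 ± 0.48, and the states overlapped. With each sex alone, Anpep was not called in females at day 5 (adjusted p = 0.211, edgeR) or in males at day 10 (adjusted p = 0.196, edgeR).

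The apical carrier of cystine and cationic amino acids is a pair whose chains differed. Slc7a9 encodes its light chain, b0,+AT. Slc7a9 had 62.4 to 120 CPM (median 82.7) in PT at day 5 and 55.2 to 152 CPM (median 91.9) at day 10, against 205 to 389 CPM (median 249) in contralateral kidneys. The states did not overlap, and the falls were -1.69 ± 0.21 (adjusted p = 1.11e-06, edgeR) and -1.55 ± 0.21 (adjusted p = 2.97e-06, edgeR). Slc3a1, the heavy chain, had 75.9 to 157 CPM (median 105) at day 5 and 76.8 to 178 CPM (median 97.2) at day 10, against 97.1 to 184 CPM (median 124) in contralateral kidneys. Its log2 fold changes of -0.30 ± 0.16 on each day were not called (adjusted p = 0.128 and 0.123, edgeR), and the states overlapped. In Total, Slc3a1 had -0.59 ± 0.15 at day 5, short of 2-fold, and fell by 1.09 at day 10, a call lost with upper-quartile factors (-0.95), library size only (-0.72) and limma on RPKM (-0.71).

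Within a library, Slc7a9 exceeded Slc3a1 per length in every contralateral PT library, with ratios of 1.44 to 2.24. In obstructed PT libraries the ratio was 0.509 to 0.964 at day 5 and 0.406 to 1.434 at day 10. It dropped by 1.41 and 1.29 on the log2 scale, and in Total by 1.42 and 1.13. At day 10 the highest obstructed library, male replicate 2 at 1.434, lay just under the lowest contralateral one at 1.437. Prepl overlaps an exon of Slc3a1 on the opposite strand, and without a stated strand setting reads there cannot be told apart. Prepl itself had a log2 fold change of -0.23 ± 0.24 in PT at day 5 and was not called.

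Slc1a1 encodes EAAC1, the apical carrier of glutamate and aspartate, whose loss in humans causes dicarboxylic aminoaciduria. It had 47.3 to 65.5 CPM (median 57.4) in PT at day 5 and 25.5 to 71.6 CPM (median 54.5) at day 10, against 98.4 to 172 CPM (median 149) in contralateral kidneys. No obstructed library reached the contralateral range. Slc1a1 fell by 1.35 ± 0.15 at day 5 (adjusted p = 2.78e-07, edgeR) and by 1.50 ± 0.15 at day 10 (adjusted p = 5.61e-08, edgeR). With library size only, which moves the median of all genes in PT up by 0.47 at day 5 and 0.44 at day 10, its day 5 change was -0.89 and not called. With limma on log2(RPKM + 1), which likewise scales to library size without TMM factors, neither day was called (-0.80 and -0.99). The gene 4430402I18Rik, which overlaps Slc1a1 on the opposite strand, fell by 1.44 ± 0.23 in PT at day 5, and reads from the overlap cannot be told apart.

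**Figure D3:**
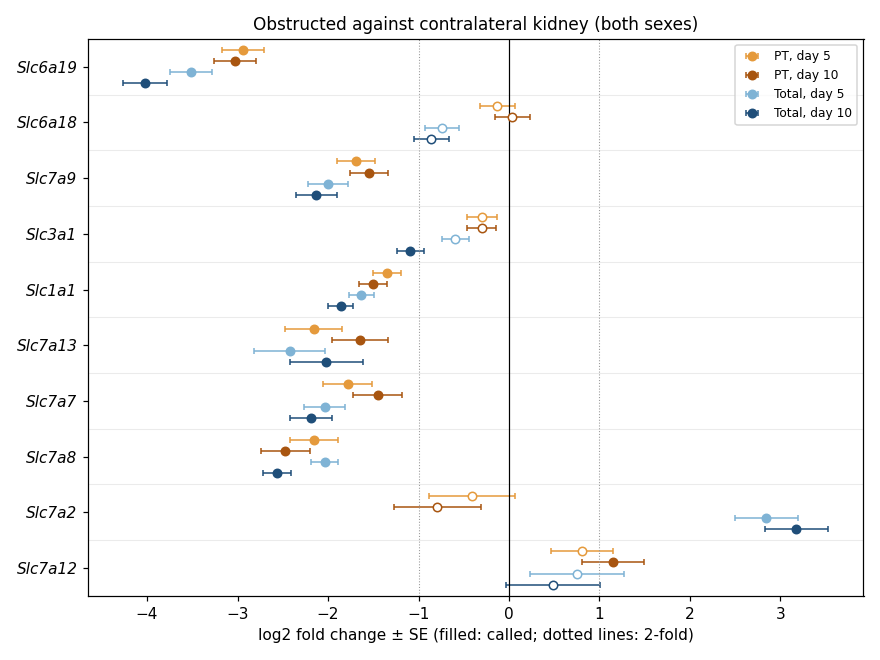
Log2 fold change ± standard error of each carrier at day 5 and day 10 against contralateral kidneys, in PT and in Total (n = 7 libraries per side); filled points were called and dotted lines mark 2-fold. Slc6a19 has the lowest values, from -2.94 to -4.02, and Slc7a2 lies at 2.84 and 3.18 in Total but at -0.41 and -0.79 in PT.

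Basolateral carriers fell as well. Slc7a7 encodes y+LAT1, which exports cationic amino acids in exchange for neutral ones and sodium. It had 48.7 to 155 CPM (median 83.1) in PT at day 5 and 50.7 to 233 CPM (median 92.8) at day 10, against 155 to 593 CPM (median 259) in contralateral kidneys. The day 5 libraries lay just under the contralateral ones, with 154.9 against 155.5 CPM at the border, and at day 10 the ranges overlapped. Slc7a7 fell by 1.78 ± 0.27 at day 5 (adjusted p = 1.17e-05, edgeR) and by 1.45 ± 0.27 at day 10 (adjusted p = 9.84e-05, edgeR). Slc7a8 encodes LAT2, an exchanger of neutral amino acids. It had 21.7 to 77.1 CPM (median 49.6) at day 5 and 15.5 to 83.6 CPM (median 33.8) at day 10, against 109 to 429 CPM (median 152) in contralateral kidneys, with no overlap. Slc7a8 fell by 2.16 ± 0.27 at day 5 and by 2.47 ± 0.27 at day 10, next after Slc6a19 among the 10 at day 10.

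Their shared heavy chain, Slc3a2, had a log2 fold change in PT of -0.94 ± 0.16 at day 5, short of 2-fold, and of -1.06 ± 0.16 at day 10, which was called. In females it fell on both days, by 1.32 ± 0.25 and 1.49 ± 0.25 (n = 3 per side), whereas its changes of -0.55 ± 0.21 and -0.63 ± 0.21 in males (n = 4 per side) were not called. The difference of these changes between the sexes was not called (adjusted p = 0.487 and 0.525, edgeR). The ratio of Slc7a8 to Slc3a2 RPKM in PT dropped by 1.23 on the log2 scale in females and 1.31 in males at day 5. At day 10 it dropped by 1.06 and 1.86. Its states did not overlap at day 5 but overlapped at day 10. The ratio of Slc7a7 to Slc3a2 differed by -0.40 in females and by -1.25 in males at day 5. At day 10 it differed by -0.13 and -0.77, and its states overlapped on both days. At day 10, female replicate 2 stood highest in both ratios, at 3.83 for Slc7a7 and 0.730 for Slc7a8. Oxa1l, which overlaps Slc7a7 on the opposite strand, had a log2 fold change of -0.24 ± 0.14 in PT at day 5 and was not called.

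Slc7a2 encodes CAT2, a carrier of arginine and other cationic amino acids that activated macrophages are known to use. It was near the floor in PT, with 0.592 to 3.15 CPM at day 5 and 0.658 to 1.89 CPM at day 10, against 0.190 to 4.85 CPM in contralateral kidneys, and was not called there. In Total it had 10.5 to 25.6 CPM (median 13.6) at day 5 and 9.03 to 40.0 CPM (median 18.9) at day 10, against 0.774 to 3.67 CPM (median 2.14) in contralateral kidneys. Every obstructed Total library exceeded every contralateral one. The rise was 2.84 ± 0.35 at day 5 (adjusted p = 6.59e-07, edgeR) and 3.18 ± 0.35 at day 10 (adjusted p = 1.36e-07, edgeR). The difference between fractions in this change was -3.27 at day 5 and -3.93 at day 10, both called as interactions. Of the 10 carriers, 1 was lower in this interaction at day 5, where 1.24% of 17110 genes were, and 1 at day 10, where 1.08% were.

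Summed macrophage and fibroblast markers were higher in obstructed Total libraries, as was Slc7a2. Those of the loop of Henle and distal tubule were lower, with medians of 949 CPM at day 5 and 863 CPM at day 10, against 3666 CPM. All 8 macrophage markers were detected, and their summed level ran from 481 to 1177 CPM at day 5 and from 952 to 1924 CPM at day 10, against 50.9 to 122 CPM in contralateral kidneys. The 6 fibroblast markers summed to 705 to 950 CPM at day 5 and 718 to 2041 CPM at day 10, against 53.4 to 140 CPM. In PT the macrophage sums were 34.5 to 64.6 CPM and 46.1 to 135 CPM, against 6.2 to 13.6 CPM. Their part in the result was not tested. Gm26584, which overlaps Slc7a2 on the opposite strand, averaged at most 0.265 CPM in any group.

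The question of Total as a whole was asked in the same way. At day 5, 6 carriers fell in Total, where 13.3% of the 16782 genes tested fell, and Slc7a2 rose, where 19.2% rose. At day 10, 7 fell, where 13.8% of genes fell, and Slc7a2 rose, where 20.9% rose. The 6 that fell in PT fell in Total on both days, and Slc3a1 was the seventh at day 10. The changes in PT and in Total are measured against different contralateral libraries.

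Set against Total, the carriers were not all enriched in PT. In contralateral kidneys 0 of 10 were higher in PT by the threshold, where 1.16% of genes were, and Slc7a12 was lower, where 22.9% of genes were. Slc7a8 (0.82 ± 0.22), Slc7a7 (0.79 ± 0.25), Slc7a9 (0.76 ± 0.21), Slc6a19 (0.59 ± 0.22) and Slc3a1 (0.50 ± 0.16) had an adjusted p under 0.05 (edgeR) but were under 2-fold. At day 5, 3 were higher in PT, where 4.02% of genes were: Slc6a19 by 1.15, Slc7a9 by 1.04 and Slc7a7 by 1.02. The calls of Slc7a9 and Slc7a7 were lost with RLE factors (0.99 and 0.98), DESeq2 (0.99 and 0.98) and without female day 5 PT replicate 3 (0.98 and 1.00). At day 10, 4 were higher, where 7.07% of genes were: Slc6a19 (1.61), Slc7a7 (1.56), Slc7a9 (1.37) and Slc3a1 (1.33). Slc7a12 and Slc7a2 were the 2 lower in PT on both days, where 23.8% of genes at day 5 and 23% at day 10 were lower.

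The order of levels per length differed between the sexes. In contralateral PT of males, Slc7a13 was highest, with a median RPKM of 132, followed by Slc7a7 (68), Slc7a9 (62.7), Slc3a1 (33.7), Slc6a19 (31.3), Slc7a8 (23.3), Slc1a1 (17.8), Slc6a18 (8.94), Slc7a12 (1.35) and Slc7a2 (0.175). Neighbours in that order overlapped, except Slc7a9 with Slc3a1, Slc6a18 with Slc7a12, and Slc7a12 with Slc7a2. In contralateral PT of females, Slc7a7 led with a median RPKM of 149 and Slc7a9 followed with 105, while Slc7a13 was ninth with 0.845. At day 5, Slc3a1 led in both sexes, with a median RPKM of 56.4 in females and 40.6 in males, but overlapped with the genes next to it.

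Slc7a13 differed most between the sexes. It encodes AGT1, a carrier of aspartate, glutamate and cystine of the last proximal tubule segment (S3), which also pairs with rBAT in mice. In contralateral PT it had 3.35, 2.44 and 2.40 CPM in the 3 female libraries, against 442, 379, 401 and 271 CPM in the 4 male libraries. At day 5 the levels were 0.732, 0.768 and 1.04 CPM in females, against 105, 32.2, 54.7 and 50.5 CPM in males. At day 10 they were 1.35, 0.704 and 0.634 CPM in females, against 58.0, 126, 97.1 and 220 CPM in males. Each female library lay below each male library in all 3 states, and the lowest male value at day 5 was still above the highest female value of any PT library.

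The fold between females and males in PT was -7.12 ± 0.53 in contralateral kidneys (adjusted p = 1.42e-08, edgeR), -6.15 ± 0.53 at day 5 and -7.20 ± 0.55 at day 10. In Total it was -6.75 ± 0.65, -5.06 ± 0.63 and -6.83 ± 0.68. Slc7a13 was the 1 carrier lower in females in each state, where 2.13% of genes in contralateral PT, 0.576% at day 5 and 1.55% at day 10 were lower. In Total the shares of genes lower in females were 1.6%, 0.28% and 1.02%. The summed level of 5 other S3 markers in contralateral PT was 675, 1159 and 871 CPM in females, against 5238, 4122, 11575 and 7537 CPM in males. The part of segment content in the result was not tested.

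Obstruction lowered Slc7a13 in PT of each sex. In males the fall was -2.64 ± 0.37 at day 5 and -1.60 ± 0.35 at day 10 (n = 4 per side, adjusted p = 9.55e-06 and 0.00118, edgeR), and in females -1.67 ± 0.52 and -1.69 ± 0.51 (n = 3 per side, adjusted p = 0.0163 and 0.0118, edgeR). The female calls rest on levels near 1 CPM. Limma-voom (adjusted p = 0.145 and 0.0982) and limma on RPKM did not call them. Leaving out any 1 of 3 libraries at day 5, or of 2 at day 10, also lost them. With only the PT libraries of high Lars2, which leave 1 female contralateral library, the female changes were -1.66 and -1.88. Over all PT libraries, the difference between the sexes in the change of Slc7a13 was 0.97 ± 0.64 at day 5 and -0.08 ± 0.57 at day 10. It was not called.

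**Figure D4:**
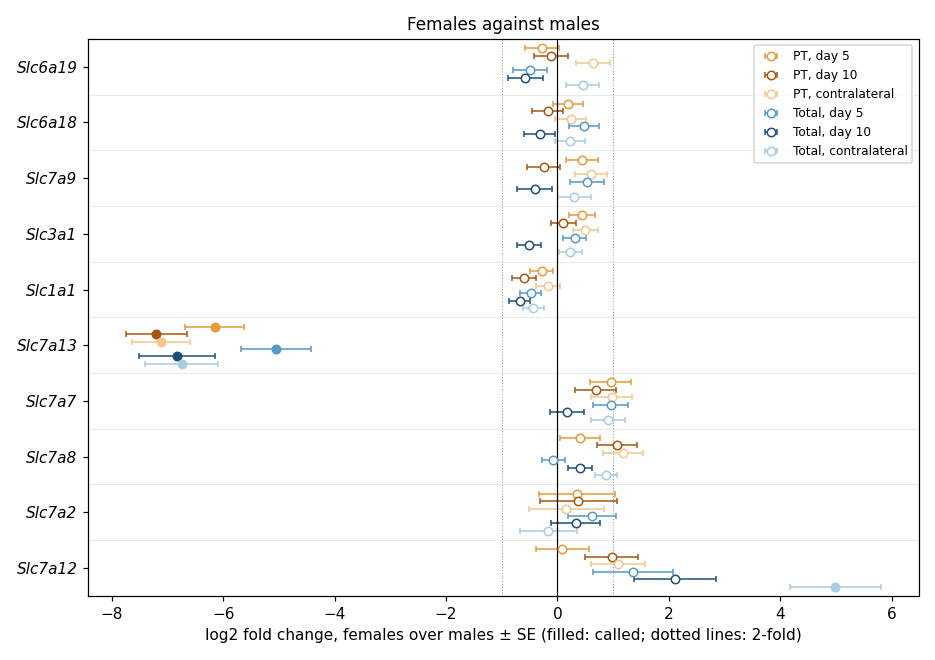
Log2 fold change ± standard error of females over males for each carrier in PT and in Total at day 5, day 10 and in contralateral kidneys (3 female and 4 male libraries per comparison); filled points were called and dotted lines mark 2-fold. Slc7a13 lies between -5.06 and -7.20 in all 6 comparisons, and Slc7a12 stands at 4.99 in contralateral Total.

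Slc7a12 went the other way in Total. It encodes Asc-2, a carrier of small neutral amino acids described in mouse kidney. Contralateral Total libraries had 230, 572 and 276 CPM in females, against 30.5, 8.76, 3.86 and 2.69 CPM in males. All female libraries were above all male ones, and the difference was 4.99 ± 0.82 (adjusted p = 0.00156, edgeR). It was the 1 carrier higher in females there, where 1.17% of genes were. With only the compared groups in the fit the adjusted p was 0.057. Contralateral PT libraries had 6.78, 19.0 and 3.73 CPM in females, against 8.70, 3.10, 3.39 and 3.03 CPM in males, and the difference of 1.08 ± 0.49 was not called.

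Slc7a12 was lower in PT than in Total by 3.25 ± 0.50 in contralateral kidneys, by 3.23 ± 0.49 at day 5 and by 2.55 ± 0.47 at day 10. Whether the sex difference was smaller in PT than in Total was tested in a comparison added after the values were seen. The interaction in contralateral kidneys was -3.87 ± 0.95 with an adjusted p of 0.125 (edgeR), and 0 of 10 carriers were called, where 0.111% of genes were; Slc7a12 was the 1 at an unadjusted p under 0.05. With the replicate number as a block, it was -4.16 with an adjusted p of 0.0307 (edgeR). That block ties same-numbered libraries of a sex across both fractions and all 3 states, although not all such libraries deviated together. DESeq2 (adjusted p = 0.0102) and limma on RPKM (adjusted p = 0.00513) also called the interaction.

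In obstructed male Total libraries Slc7a12 had 49.7, 56.2, 86.9 and 85.3 CPM at day 5 and 62.2, 63.7, 5.93 and 42.3 CPM at day 10, all day 5 values above the contralateral ones. It rose by 2.57 ± 0.72 at day 5 (n = 4 per side, adjusted p = 0.00721, edgeR) and by 1.93 ± 0.71 at day 10 (n = 4 per side, adjusted p = 0.0327, edgeR), the second lost with no filter (adjusted p = 0.055), with only the compared groups in the fit (adjusted p = 0.135) and without any 1 of 5 libraries. Without male contralateral replicate 1, the highest of its group, the rises were 3.71 and 3.06. In these male Total comparisons 19.5% and 19.8% of genes rose. Female Total libraries had 194, 197 and 138 CPM at day 5 and 243, 213 and 98.9 CPM at day 10, and changes of -1.06 ± 0.78 and -0.96 ± 0.78 were not called. The difference of these changes between the sexes, -3.63 ± 1.07 at day 5, was not called (adjusted p = 0.151, edgeR), though DESeq2 called it (adjusted p = 0.0204). In PT with both sexes, Slc7a12 had 8.57 to 15.5 CPM at day 5 and 4.77 to 28.1 CPM at day 10, against 3.03 to 19.0 CPM in contralateral kidneys. The rise of 1.15 ± 0.34 at day 10 (adjusted p = 0.00744, edgeR) was 0.95 and not called without female contralateral replicate 3. With only the PT libraries of low Lars2, which leave 1 male contralateral and 1 female day 10 library, it was 1.08.

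The other 8 carriers were not called between the sexes in either fraction. The largest of these differences was in Slc7a8, with 237, 245 and 429 CPM in contralateral PT of females, against 130, 152, 136 and 109 CPM in males. The groups did not overlap, and the log2 difference was 1.18 ± 0.36 (adjusted p = 0.0634, edgeR), which DESeq2 called (adjusted p = 0.0236). Slc7a7 had a log2 difference of 0.97 ± 0.37 there (adjusted p = 0.161, edgeR). None of the 10 passed the test of a difference in change between the sexes, with 0 called by edgeR in PT, where 0.502% of genes were at day 5 and 0.208% at day 10, or in Total, where 0.59% and 0.185% were. At an unadjusted p under 0.05 there were 1 and 0 in PT and 4 and 3 in Total, with no share of all genes to set beside these counts. DESeq2 called 1 in Total at day 5, Slc7a12, and 0 in the others.

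In each sex alone the same 6 carriers fell in PT. In females 6 of 10 fell at day 5, where 11.3% of genes did, and 6 at day 10, where 12.9% did. In males 6 fell at day 5, where 11.6% of genes did, and 6 at day 10, where 8.65% did, and Slc7a12 rose, where 16.6% of genes rose at day 5 and 17.5% at day 10, by 1.31 ± 0.46 and 1.21 ± 0.45. The Slc7a12 calls in males were lost without any 1 of 4 libraries at day 5 and of 6 at day 10. With no filter the day 10 call was also lost (adjusted p = 0.0664, edgeR). In females the Slc7a12 change in PT at day 10 was 1.10 and was not called. Library size only (1.56), limma-voom (1.36) and limma on RPKM (1.54) called it. With library size only, Slc1a1 was not called in females at day 5 (-0.99) or in males on either day (-0.78 and -0.89), nor were Slc7a7 (-0.96) and Slc7a9 (-0.77) in males at day 10. With limma on RPKM, which shares that scaling, the same calls were lost. With only the PT libraries of high Lars2, which leave 1 female library per side at day 5, the Slc7a7 change in females was -0.95. Slc6a19 fell in females by 3.40 ± 0.36 at both days and in males by 2.48 ± 0.30 and 2.66 ± 0.30. The differences of these changes, -0.92 ± 0.43 and -0.74 ± 0.43, were not called (adjusted p = 0.569 and 0.977, edgeR). In Total of females at day 10, 8 of 10 fell, where 13.3% of genes did, with Slc6a18 (-1.13 ± 0.29) and Slc3a1 (-1.46 ± 0.23) among them. The Slc6a18 call was lost with library size only (-0.90), with limma on RPKM (-0.87) and without contralateral replicate 2 or day 10 replicate 3. The Slc7a13 call there was lost with limma-voom (adjusted p = 0.219), with limma on RPKM and without any 1 of 3 libraries.

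Within day 10 the male PT libraries spread widely. Replicates 1 to 4 had summed proximal tubule marker levels of 1109, 2069, 1365 and 3027 CPM. Slc7a9 had 55.2, 152, 80.5 and 136 CPM, Slc6a19 had 25.1, 45.6, 29.9 and 51.3 CPM, and Slc7a13 had 58.0, 126, 97.1 and 220 CPM in the same order. Replicates 2 and 4 were the highest in each of these. The same libraries were those of high Lars2, at 21958 and 29140 CPM, against 5725 and 3264 CPM in replicates 1 and 3. Slc3a1 had 118, 92.3, 117 and 97.2 CPM, and Slc7a8 had 41.7, 15.5, 23.9 and 20.7 CPM, where replicates 2 and 4 were the lowest. With only the PT libraries of high Lars2 (2 at day 10 and 3 contralateral), the day 10 falls in males were not called for Slc7a13 (-1.12, adjusted p = 0.0542, edgeR), Slc7a7 (-0.75) and Slc7a9 (-0.70). Those of low Lars2 leave 1 male contralateral library, so a fit on them cannot show whether the male calls hold. The part of marker level or of Lars2 in the spread was not tested.

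Genes with the most similar pattern to each carrier were found over the 21 PT libraries among 9917 genes, by the root mean square difference of log2 CPM after centring each gene. The 2 nearest of each are named. Slc7a7 had Slc7a9, another of the 10, as its nearest at 0.39, and Tinag at 0.47. Slc7a9 was nearest to Gcat and Slc5a11 (0.28 each), and Slc6a19 to Lpar3 and F13b (0.39 each). The smallest distances were those of Slc3a1, to Enpp5 (0.16) and Car5b (0.19), and of Slc1a1, to Trpc1 (0.20) and Enpp6 (0.21). Slc6a18 was nearest to Qpctl and Aatf (0.27 each), and Slc7a8 to Enpp1 (0.50) and Angpt1 (0.54). For Slc7a13 the nearest were Slco1a1 (0.75), an organic anion carrier, and Ces1f (0.89). Slc7a12 was nearest to Hoxb9 (0.52) and Kank2 (0.54), and Slc7a2 to Mettl21b (0.70) and Pde1a (0.72).

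Other amino acid and peptide carriers, a list of 46 genes, moved in both directions. In PT at day 5, 12 of the 29 tested rose and 7 fell, where 18.2% of all genes rose and 12.4% fell. At day 10, 12 rose and 6 fell, where 19.7% and 12% of genes did. Their median log2 fold change at day 5 was 0.66, against -1.52 for the 10 carriers described here. The largest rises among those at 5 CPM or more were in Slc7a6 (y+LAT2, 4.60 ± 0.46), Slc1a5 (ASCT2, a glutamine carrier of many growing cells, 3.77 ± 0.28) and Slc38a2 (SNAT2, 2.30 ± 0.26). Slc38a2 had a mean of 41.4 CPM at day 5, against 8.41 CPM in contralateral PT. Slc7a6 averaged 5.49 CPM at day 5, against 0.216 CPM in contralateral PT, so its rise starts from a level near the floor. The largest falls were in Slc6a20b (-2.67 ± 0.19), a relative of the proline carrier, Slc43a2 (LAT4, a basolateral carrier, -2.20 ± 0.18) and Slc36a1 (-1.94 ± 0.23). Slc6a20b averaged 20.9 CPM at day 5, against 129 CPM in contralateral PT.

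In Total at day 5, 12 of the 31 tested rose and 6 fell, where 19.2% of all genes rose and 13.3% fell. At day 10, 9 rose and 7 fell, where 20.9% and 13.8% of genes did. By the same rule the largest rises in Total at day 5 were in Slc38a1 (1.80 ± 0.19), Slc7a1 (1.78 ± 0.19), the cationic carrier CAT1, and Slc7a5 (1.71 ± 0.32), the LAT1 light chain, and the largest falls in the 3 genes that led them in PT. The rise was larger in PT than in Total for Slc7a6, by 3.03 at day 5 and 2.99 at day 10, and for Slc1a5, by 2.60 and 2.22 (interactions, called). In contralateral PT, Slc1a5 averaged 0.906 CPM, against 10.1 CPM in contralateral Total. Between the sexes, Slc1a4, a carrier of small neutral amino acids, was lower in females in contralateral kidneys, by 2.57 in PT, where it averaged 1.53 CPM in females and 9.10 CPM in males, and by 1.403 in Total.

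**Figure D5:**
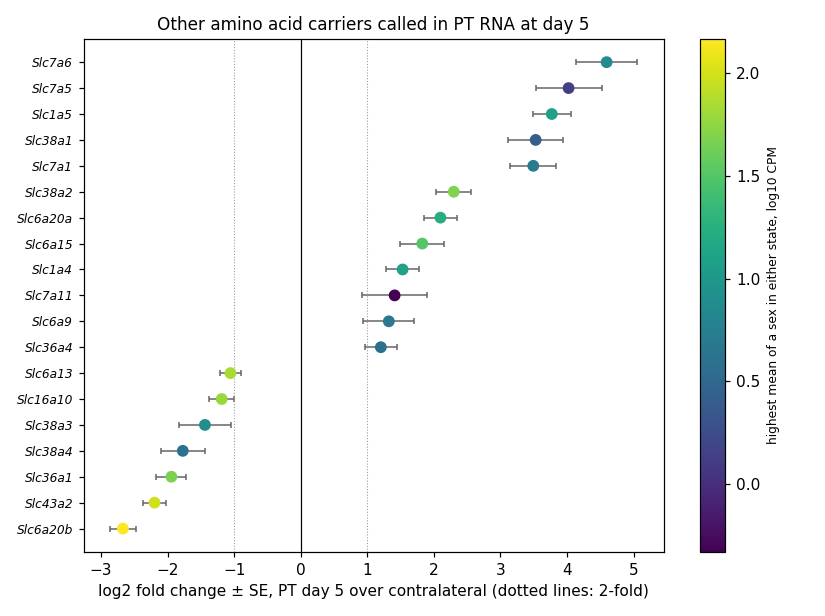
Log2 fold change ± standard error, PT at day 5 over contralateral PT (n = 7 libraries per side), of the 19 other amino acid carriers that were called; colour gives the highest mean level of a sex in either state as log10 CPM. Slc7a6 stands at 4.60 at the top and Slc6a20b, the most abundant, at -2.67 at the bottom.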

How the data were processed

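RNA of PT and Total fractions was sequenced in 42 libraries, 4 male and 3 female per fraction and kidney state. Raw read counts per gene were deposited; per the submitters' processing notes STAR 2.0.4b, Subread and featureCounts 1.4.5 were used, and the build, annotation and strand setting are not given in the sources used here. RPKM values were also deposited by the authors, and were used for levels between genes and for ratios within libraries. The counts were fitted with edgeR 4.0.16 (R 4.3.3): TMM factors, filterByExpr, group means and a robust quasi-likelihood test, with separate fits for PT (14932 genes), Total (16782) and both (17110), and Benjamini-Hochberg adjustment over all genes of a fit. Standard errors are the log2 fold change over the square root of F, an approximation. There were 32 comparisons, of which 3, the fraction by sex interactions, and the ratios were added after values were seen.

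Same-numbered libraries deviated together, with all 7 correlations over 0.1, between Total and PT in contralateral kidneys, between Total and PT at day 10, and between contralateral and day 10 Total; other pairs of groups did not meet this. The alternatives were RLE and upper-quartile factors, library size only, other filters, DESeq2 1.42.0, limma 3.58.1 (voom, and log2(RPKM + 1)), only the groups compared, the replicate block, Lars2 level, other thresholds, and leaving out each library. The Lars2 split of PT libraries was chosen after seeing the data. All 10 carriers, the partners, of which 1 is not reported here, the 3 largest called rises and falls of the other carriers at 5 CPM or more, and the 2 nearest genes by pattern are named. Members and lists were chosen with earlier results of these data known.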

Additional observations from a re-analysis of the deposited data

Results flagged for a closer look

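In 3 of 60 sets of male libraries, 1 library lay far from the rest, in a test that chance meets in about 1 in 20 groups. The sets were the carriers in each of the 6 male groups. Female groups, with 3 libraries each, were not tested. Slc7a12 in contralateral male PT was 8.70 CPM in replicate 1, against 3.03 to 3.39 CPM in the other 3. Slc6a18 in male PT at day 5 was 65.3 CPM in replicate 2, against 60.0 to 60.9 CPM. Slc7a2 in male PT at day 10 was 1.89 CPM in replicate 1, against 0.658 to 0.820 CPM.

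The change with obstruction differed between PT and Total for 2 carriers, by the interaction in edgeR. Slc7a2 had an interaction of -3.27 at day 5 and -3.93 at day 10 on the log2 scale, with a rise in Total and no call in PT. Slc6a19 had an interaction of 1.02 at day 10, with the smaller fall in PT, a call lost with DESeq2 (0.88) and other settings. Slc6a18 (0.93) and Slc3a1 (0.83) had adjusted p of 0.0307 and 0.0158 (edgeR) in that interaction but were under 2-fold. Limma-voom called Slc6a18 there (1.01).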

How the results depend on the processing

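Of 4794 values under alternatives other than leaving out a library, 4648 kept their side of the threshold or, for counts, stayed within 1.5 times. Of the rest, 70 lost a call, 45 gained one and 31 counts moved by more. Of 9240 values with 1 library left out, 9137 were kept by the same rule. In both sets 0 called values reversed their direction. Values called in neither setting changed sign 337 times, 202 of them with 1 library left out. Numbers of called carriers moved as follows. The share of all genes called under each setting is not given beside them, so a moved count is not a result about the carriers alone. Dropping the fold minimum can only add calls, for any gene. PT against Total at day 5 had 5, but 3 with RLE or upper-quartile factors, DESeq2 or only the groups compared, 2 with library size only or limma on RPKM, 8 with no fold minimum, and 3 to 5 with a library left out. The fraction by day 10 interaction had 2, but 1 with RLE or upper-quartile factors, no filter, DESeq2, limma on RPKM, only the groups compared or adjusted p under 0.01, 4 with no fold minimum, and 1 to 3 with a library left out. PT against Total in contralateral kidneys had 1, and 6 with no fold minimum. Females against males had 1 in contralateral PT, and 2 with DESeq2 or only the groups compared; 1 in PT at day 10, and 2 with Lars2 as covariate, the even-split term, or only low or only high Lars2 libraries; 2 in contralateral Total and 1 in Total at day 5, and 1 and 2 with only the groups compared. In PT at day 10 and contralateral PT, leaving out a library gave 1 to 2. Male PT at day 10 had 7, but 4 with library size only, limma on RPKM or high Lars2 libraries, and 5 to 7 with a library left out. Without male PT replicate 1 or 3, Slc7a9 there was not called (lowest -0.90). The sex by day 5 interaction in Total had 0 and DESeq2 gave 1 (0 to 1 with a library left out). The fraction by sex interaction in contralateral kidneys had 0, and 1 with DESeq2, limma on RPKM or the replicate block (0 to 1 with a library left out). The replicate block otherwise changed the call of Slc7a7 in PT against Total at day 5 (0.99), and no other call. Library size only moved the share of higher calls in PT from 59.6% to 83.2% at day 5 and from 62.2% to 82.9% at day 10. The causes were not tested. Levels of Slc7a2 in PT and Slc7a13 in females rest on few reads, down to 3 counts in a library, which limits their precision.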
